A study of Mus musculus with 6 samples.

Results

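The 10 RNAs described here are well-studied noncoding transcripts, followed in fibroblasts in which the long noncoding RNA Ntep had been targeted. They were the nuclear RNAs Malat1 and Neat1, the snoRNA hosts Gas5, Snhg1, Snhg3 and Snhg5, the imprinted RNAs H19, Meg3 and Kcnq1ot1, and the microRNA host Dleu2. Members were all array probes, control spots aside, that carry one of these 10 names. This gave 22 of the 55681 probes on the array and 9 of the 10 genes, since no probe carries the name Snhg5.

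The cells were 3T3 fibroblasts, an established mouse line. They received 50 nM GapmeR Ntep or 50 nM GapmeR control for 48 h in 3 experiments, with 1 array per GapmeR and experiment and hence 3 arrays per group. A GapmeR is a short antisense oligonucleotide with a DNA centre, which directs RNase H to the RNA it pairs with. No untreated cells were on the arrays, and 1 sequence stands for the silencing of Ntep, so an effect of that oligonucleotide and an effect of losing Ntep cannot be told apart.

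Malat1 and Neat1 stay in the nucleus: Malat1 collects in nuclear speckles, which store splicing factors, and Neat1 is the scaffold around which paraspeckles form. snoRNA hosts are spliced transcripts whose introns carry small nucleolar RNAs, the guides for modification of ribosomal RNA, while their spliced exons often code for nothing and are removed by nonsense-mediated decay on ribosomes. H19, Meg3 and Kcnq1ot1 are made from 1 parental allele, and Dleu2 carries miR-15a and miR-16 in an intron. In the RefSeq annotation of GRCm38.p6, 8 snoRNAs lie inside Gas5, 8 inside Snhg1, 2 inside Snhg3 and 2 inside Snhg5.

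Values are signal intensities after quantile normalization, which gives all arrays the same distribution, with values under 20 set to 20. Signals of different probes are not comparable as RNA levels, because probes differ in how they bind. A difference is log2 of GapmeR Ntep minus log2 of GapmeR control, with its SE and n = 3 arrays per group. Probes whose group mean reached 50 under either GapmeR were tested with limma, and a probe was called changed at a Benjamini-Hochberg adjusted p under 0.05 over the 30990 probes tested.

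The probes that carry the results are 60 bases long and are given 5′ to 3′ with their mm9 positions. The first 3 are the probes of Gas5 on chromosome 1, of which 1 was called. The probes of Snhg1, Malat1 and Neat1 follow. Next is a window probe labelled as downstream of Neat1, which here means downstream of the probe named Neat1, not of the gene. Last is the Dleu2 probe with the largest difference.
Gas5 probe 1, chr1:162966369-162966428, + strand: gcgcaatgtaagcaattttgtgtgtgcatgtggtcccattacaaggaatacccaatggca
Gas5 probe 2, chr1:162967350-162967409, + strand: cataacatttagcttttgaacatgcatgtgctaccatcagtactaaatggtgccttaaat
Gas5 probe 3, chr1:162968608-162968667, + strand: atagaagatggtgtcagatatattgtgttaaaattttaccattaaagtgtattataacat
Snhg1, chr19:8798913-8798972, + strand: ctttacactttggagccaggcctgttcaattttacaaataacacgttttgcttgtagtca
Malat1, chr19:5795713-5795772, - strand: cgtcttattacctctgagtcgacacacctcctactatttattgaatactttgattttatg
Neat1, chr19:5842564-5842623, - strand: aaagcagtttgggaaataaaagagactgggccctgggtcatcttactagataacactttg
Downstream of Neat1, chr19:5834857-5834916, - strand: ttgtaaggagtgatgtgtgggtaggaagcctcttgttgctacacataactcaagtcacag
Dleu2 probe 1, chr14:62237277-62237336, - strand: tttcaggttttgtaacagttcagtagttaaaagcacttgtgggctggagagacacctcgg
Exons and introns under these probes are not given here, because no mm9 annotation was used.

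Of the 22 probes, 18 from 8 genes passed the filter and were tested. The other 4, all probes of Meg3 and 1 of H19, were not well above background on any array. A single probe was called, Gas5 probe 1, against 5.30% of all tested probes. At the limits of the study's methods, a fold of at least 2 with an unadjusted limma p under 0.01, it was also 1 of 18 probes, against 8.13% of all. The groups did not overlap for 2 probes, Gas5 probe 1 and Snhg1, both higher under GapmeR Ntep, against 32.1% of all tested probes. Higher within all 3 experiments were 6 member probes, against 32.4% of all, and lower within all 3 were 3 member probes, all of H19, against 26.7%. These shares lie near or below the background, so the counts show nothing particular to the members.

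**Figure D1:**
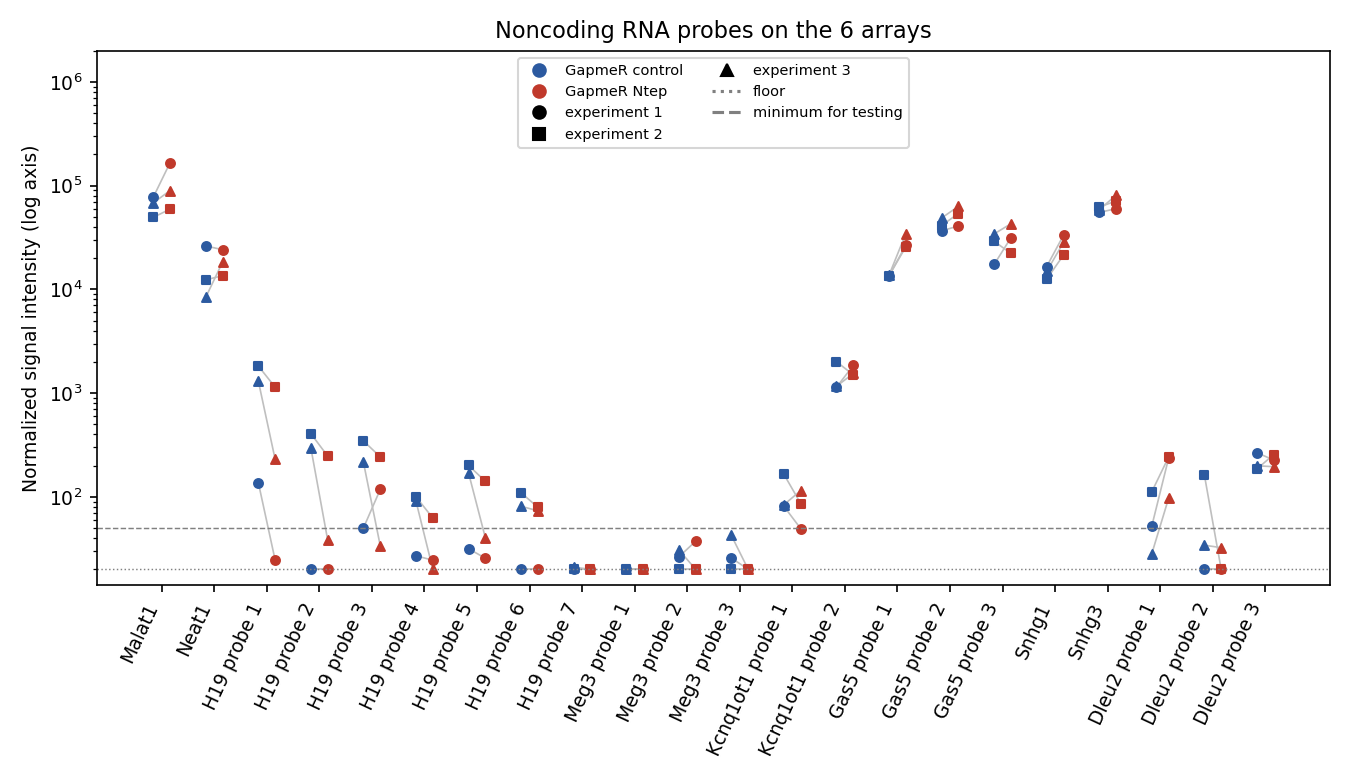
Normalized signal intensity (log axis) of the 22 probes, with GapmeR control arrays in blue on the left and GapmeR Ntep arrays in red on the right of each probe. Marker shapes give the experiment, grey lines join arrays of the same experiment, and probes of 1 gene are numbered by position. Gas5 probe 1 and Snhg1 are the probes whose groups lie apart, and Meg3 stays at or near the floor of 20.

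Some facts of the arrays bear on all members. Between 43.8% and 53.4% of probes were well above background per array, and none of the member spots was saturated or marked as an outlier. The Ntep probe, A630089N07Rik in the files, read 472, 91.5 and 226 on the arrays labelled GapmeR Ntep in experiments 1 to 3, and 271, 272 and 361 on those labelled GapmeR control. In experiment 1 it therefore went against its label. Its difference was -0.48 (SE 0.58, limma adjusted p = 0.632), and an exact two-sided permutation test gave p = 0.7, where 0.1 is the smallest possible. By qPCR, the study found Ntep strongly reduced by this GapmeR, without stating whether the RNA on the arrays was measured. In experiment 1 called genes of the lists below differed by -3.20 (Son), -1.65 (Pspc1), -1.76 (Upf2), 0.74 (Rnps1), 1.22 (Mirg) and 1.24 (Cd68). Each had the same sign in experiments 2 and 3, but the call itself favours such genes. Whether arrays of experiment 1 carry a wrong label was not tested. All directions below are those of the labels, and the leading results are also given without both arrays of experiment 1. Of 14 fibroblast markers tested, 13 were lower in the arrays labelled GapmeR Ntep and none was called, with summed signals of 674693 to 866127 against 962137 to 1045356. Of 11 macrophage markers on the array 6 were tested, 4 higher and 2 lower with differences from -1.28 to 3.19, and only Cd68 was called, higher under GapmeR Ntep. Over all genes tested 5.15% were called. A second, dimmer Cd68 probe had a difference of 0.68 and was not called (SE 0.23, limma adjusted p = 0.143). The macrophage list had summed signals of 43052 to 75452 against 21146 to 27795, and Ptprc, Adgre1, Fcgr1, Tyrobp and Spi1 were not well above background on any array. The part of these shifts in the results below was not tested, and in RNA from whole cultures fewer cells of a type and less RNA per cell cannot be told apart. Quantile normalization placed the median difference of all tested probes at 0.06, and scaling to the 75th percentile, an alternative, at 0.22.

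Gas5, a growth-arrest transcript whose snoRNAs guide methylation of ribosomal RNA, gave the only called member probe. Probe 1 read 26648, 25695 and 34570 under GapmeR Ntep and 13473, 13597 and 13681 under GapmeR control. The controls differed by at most 1.02-fold around 13584 ± 105 (mean ± SD, n = 3), and every GapmeR Ntep array was above all of them. The difference was 1.08 (SE 0.18, 95% interval 0.64 to 1.52), a rise of 2.11-fold, with a limma adjusted p of 0.035. Within experiments 1, 2 and 3 it was 0.98, 0.92 and 1.34.

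The other Gas5 probes, which lie downstream on the same strand, did not pass the test. Probe 2 read 40833, 53860 and 63221 under GapmeR Ntep and 36687, 41295 and 48737 under GapmeR control, with a difference of 0.30 (SE 0.23, limma adjusted p = 0.454). Probe 3 read 31494, 22190 and 42935 against 17400, 29123 and 34266, with a difference of 0.26 (SE 0.36, limma adjusted p = 0.673). Both overlapped between groups, and in experiment 2 probe 3 was lower under GapmeR Ntep. Within each array, log2 of probe 1 minus the mean log2 of probes 2 and 3 was compared next. It lay 0.80 higher under GapmeR Ntep, with no overlap between groups, which is given without a test because probe 1 was set apart by its own call. Of the 3 Gas5 probes 1 was thus called, and whether the probes differ in response was not tested. The call rested on all arrays being present: it was kept in 1 of the 6 fits that left out an array, the one without GapmeR Ntep replicate 2 (limma adjusted p = 0.049), and was lost in the other 5 and without experiment 1 (limma adjusted p = 0.069), while the difference stayed between 0.95 and 1.16.

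The array also carries probes for windows on either strand of this locus, which bear no gene name and were looked at after the member values were known. All tested window probes within 10000 bases of a Gas5 probe were 4 on the Gas5 strand and 10 on the opposite strand. None of the 4 was called, and their differences ran from 0.00 to 0.91. The 2 highest of these, 0.71 and 0.91, lie 306 and 366 bases downstream of Gas5 probe 2. On the opposite strand 1 of 10 was called, at chr1:162966137-162966196, 232 bases upstream of Gas5 probe 1. It read 1142, 666 and 995 under GapmeR Ntep and 412, 306 and 399 under GapmeR control, a difference of 1.30 (SE 0.26, limma adjusted p = 0.048). The call was kept in 9 of the 14 alternatives with all arrays and in 1 of the 6 fits that left out an array, and without experiment 1 the difference was 1.22 (limma adjusted p = 0.091). The other 9 ran from 0.09 to 0.63, so the differences within this locus changed from probe to probe.

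Snhg1, the host of Snord22 and other box C/D snoRNAs, is covered by 1 probe. It read 33242, 21431 and 28353 under GapmeR Ntep and 16610, 12537 and 14928 under GapmeR control. The groups did not overlap, and all 3 experiments gave a positive difference, 1.00, 0.77 and 0.93. The difference was 0.90 (SE 0.23, 95% interval 0.34 to 1.46), with a limma adjusted p of 0.077, so it was not called. With experiment as a replicate block it was (limma adjusted p = 0.038), and without experiment 1 it was 0.85 (limma adjusted p = 0.104).

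Snhg3, the host of the box H/ACA RNAs Snora73a and Snora73b, read 60012, 71189 and 80890 under GapmeR Ntep and 55185, 62210 and 58631 under GapmeR control. The lowest GapmeR Ntep array lay below the highest control, although the difference was positive in each experiment. At 0.26 (SE 0.18, 95% interval -0.18 to 0.70, limma adjusted p = 0.420) it was not called, and a change of the size read by Gas5 probe 1 lies outside this interval. Snhg5 appears under its older symbol 2810026P18Rik, which falls outside the choice of members. Its brighter probe read 6258, 6594 and 8379 against 6202, 4964 and 5044, a difference of 0.38 (SE 0.20, limma adjusted p = 0.287), with no overlap between groups. The dimmer one read 4814, 2709 and 6324 against 2729, 2768 and 3508, a difference of 0.55 (SE 0.34, limma adjusted p = 0.369), with overlap.

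The host family around these members was read from a list of 18 other noncoding snoRNA hosts. A probe was found for 13, and 8 were tested by the brightest probe of each gene. All 8 differences were positive, with a median of 0.55 against 0.06 over all 22039 genes tested, and none was called, where 5.15% of all genes were. The largest belonged to Snhg20 (1.28, SE 0.44, limma adjusted p = 0.145) and Snhg10 (0.99, SE 0.30, limma adjusted p = 0.107). Snhg10 read 15037, 9860 and 11355 against 8604, 4884 and 5079, so its groups did not overlap. With experiment as a block both were called (limma adjusted p = 0.033 and 0.037), and so was another gene of the list (limma adjusted p = 0.047). Another background correction, normexp, let 13 through the filter. Of these 10 were higher and 3 lower, with a median of 0.19, and 2 were called. Over all genes the median was then 0.02, and 1690 of 35419 were called. Protein-coding genes that host snoRNAs, mostly of the ribosome and of translation, formed a second list, and the lists were not tested against each other. Of 31 tested, 15 were higher and 16 lower (27 and 4 with scaling to the 75th percentile), the median was 0.00 (0.22 with that scaling, as over all genes), and none was called. Wdr43, a protein of ribosome assembly, had the largest difference at 0.90 (SE 0.26, limma adjusted p = 0.098, and 0.040 with the block).

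Proteins that act on these transcripts were looked at in turn. Of 16 proteins of the snoRNA particles and their assembly, 10 were higher and 6 lower, and none was called. Shq1, an assembly factor of H/ACA particles, had the largest difference at -1.10 (SE 0.28, limma adjusted p = 0.078), and Znhit3, which acts on C/D particles, the next at 0.71 (SE 0.17, limma adjusted p = 0.065, and 0.046 with the block). Of 15 factors of nonsense-mediated decay, 11 were higher and 4 lower, with a median of 0.25, and 2 were called. Over all genes tested, 11965 of 22039 were higher and 5.15% were called. Upf2, which bridges Upf1 to the exon junction complex, read 2708, 4325 and 3814 under GapmeR Ntep against 9158, 7793 and 8077, a fall of 1.23 on the log2 scale (SE 0.23, limma adjusted p = 0.040). Rnps1, a splicing activator that joins the same complex, read 27168, 31551 and 26367 against 16310, 14136 and 13809, a rise of 0.94 (SE 0.17, limma adjusted p = 0.039). A second, dimmer Rnps1 probe also had a difference of 0.94 but was not called (SE 0.33, limma adjusted p = 0.148). Of these 2 called factors 1 rose and 1 fell, and with scaling to the 75th percentile 1 of the list was called.

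**Figure D2:**
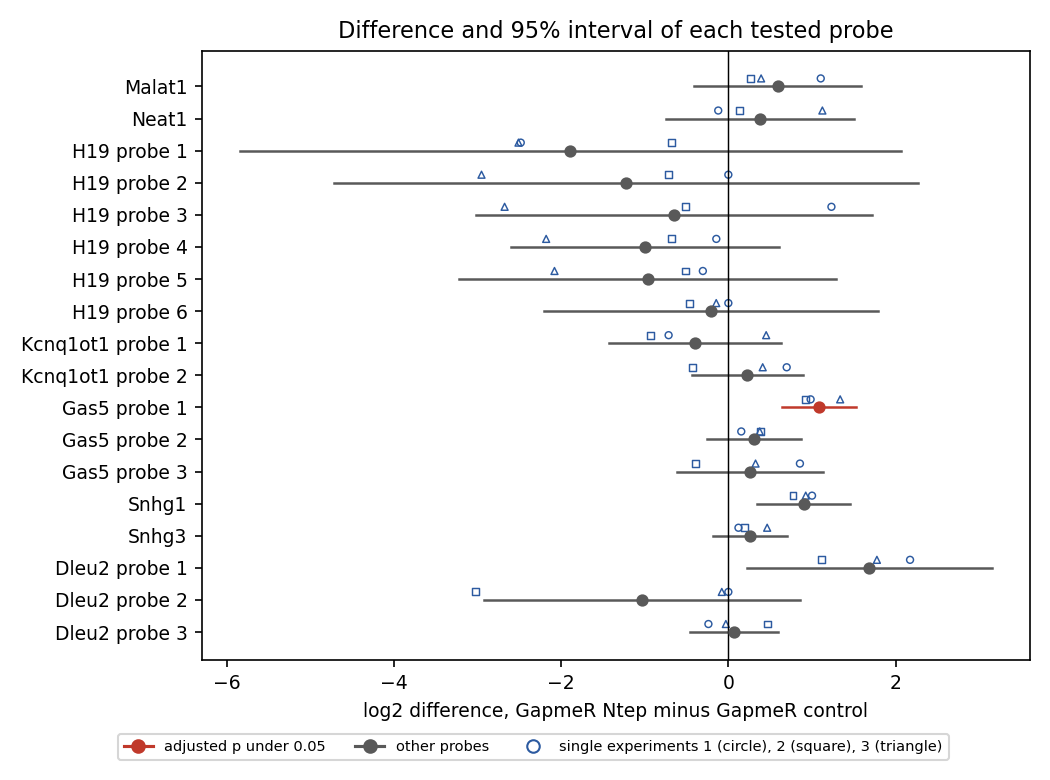
Log2 difference between GapmeR Ntep and GapmeR control for the 18 tested probes, with its 95% interval as a bar and the difference within each experiment as open markers. Gas5 probe 1, in red, is the probe called at an adjusted p under 0.05. The intervals of Snhg1 and Dleu2 probe 1 also lie above 0, without passing the adjustment, and the interval of H19 probe 1 is the widest.

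Malat1 showed how far a single spot can carry a difference. The probe of that name read 166272, 59464 and 89631 under GapmeR Ntep and 77296, 49417 and 68311 under GapmeR control. It was higher in each experiment, and its difference was 0.59 (SE 0.41, 95% interval -0.41 to 1.59, limma adjusted p = 0.419). A probe named NEAT2, an older name of Malat1, holds the same 60 bases at another place on the array. It read 53175, 57969 and 89951 against 77048, 49493 and 62971. On 5 arrays the ratio between these spots lay between 0.996 and 1.08, but on GapmeR Ntep replicate 1 it was 3.13. From the NEAT2 spot the difference was 0.07 (SE 0.28, limma adjusted p = 0.899), and in experiment 1 it pointed down. The array holds 35 such pairs of single spots with the same bases that were well above background throughout. Their median gap was 0.09 on the log2 scale, and the Malat1 pair on that array was the 1 case over all pairs and arrays where the gap exceeded 1. In experiment 1 the difference was 1.11 at the Malat1 spot and -0.53 at the NEAT2 spot. Other NEAT2 probes, 60 and 120 bases upstream, and a window probe 39 bases upstream had -0.49, -0.38 and -0.42 there. Window probes of this strand 2543 to 6554 bases upstream were higher in that experiment, from 0.25 to 1.30. That the Malat1 probe was higher in experiment 1 thus rests on its own spot. Neither spot carried an outlier mark, and which of the readings is right was not tested.

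**Figure D3:**
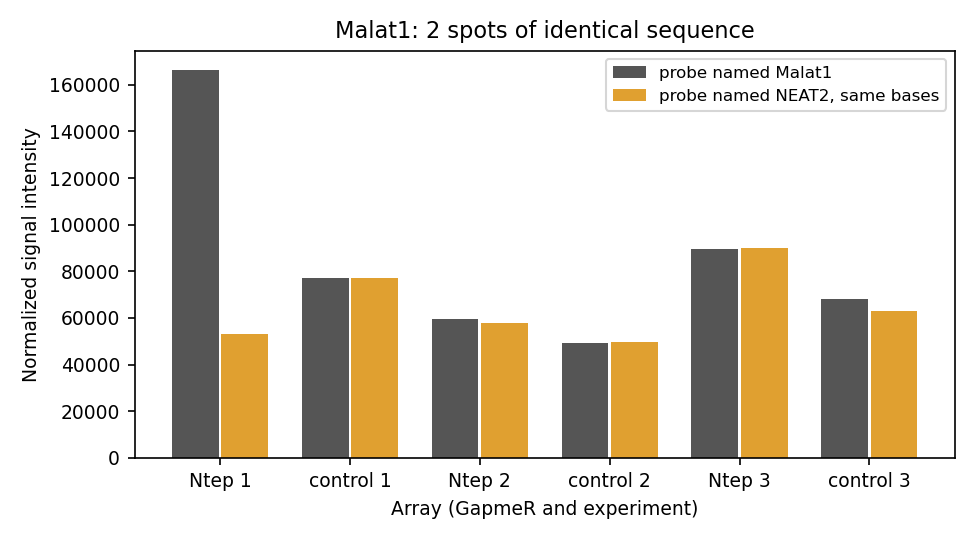
Normalized signal intensity of the spots named Malat1 and NEAT2, whose 60 bases are identical, on each of the 6 arrays. The bars match on 5 arrays, and on GapmeR Ntep replicate 1 they stand at 166272 and 53175.

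Other probes of the Malat1 strand were read beside these spots. The 2 further probes named NEAT2 had differences of 0.17 and 0.28, and the 7 tested window probes on this strand ran from -0.07 to 0.49 with a median of 0.08. None of these was called. The 3 most upstream, 6417 to 6554 bases from the Malat1 probe, had differences of -0.07, 0.00 and -0.01. No probe of Malat1 on this strand therefore passed the test.

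Neat1 makes a short and a long transcript from the same start, and paraspeckles need the long one. The probe named Neat1 read 24131, 13536 and 18331 under GapmeR Ntep and 26242, 12370 and 8407 under GapmeR control. The groups overlapped, and the differences within experiments 1, 2 and 3 were -0.12, 0.13 and 1.12. The difference was 0.38 (SE 0.46, 95% interval -0.75 to 1.50, limma adjusted p = 0.636). The 5 probes named NEAT1, all within 222 bases of it and 2 of them sharing 30 bases with it, had differences of 0.41 to 0.50, and none was called.

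Larger differences came from 3 unnamed window probes on the same strand, 7707, 7961 and 8021 bases downstream of the Neat1 probe. These were the only tested window probes on that strand within 10000 bases, and they were chosen after values had been seen. The nearest, whose sequence is given above, read 592, 620 and 632 under GapmeR Ntep and 182, 238 and 155 under GapmeR control. The next read 830, 909 and 852 against 254, 344 and 221, and the farthest 804, 883 and 827 against 243, 362 and 236. All 3 were tight within the groups and lay apart between them. Their differences were 1.70, 1.69 and 1.61 (SE 0.21, 0.21 and 0.22), rises of 3.26-, 3.22- and 3.05-fold, and limma adjusted p-values of 0.024, 0.025 and 0.028. Without experiment 1 they were 1.71, 1.67 and 1.55, with limma adjusted p-values of 0.059, 0.061 and 0.065. The calls were kept in 12, 12 and 11 of the 14 alternatives with all arrays, and in 2, 2 and 1 of the 6 fits that left out an array. Within each array, the mean log2 of the 3 minus log2 of the Neat1 probe lay 1.29 higher under GapmeR Ntep than under GapmeR control, and the groups did not overlap, which is given without a test.

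The files give these 3 probes no gene. RefSeq records 2 Neat1 transcripts within a span of 20773 bases in GRCm38.p6, from 5824708 to 5845480 on chromosome 19. The mm9 positions of the 3 probes and of the Neat1 probe fall between these numbers. At neighbouring Malat1 the builds share a number: its GRCm38.p6 start, 5795690, also begins an mm9 window of the array. By position the 3 probes thus lie inside the Neat1 span, if the builds match there too. Positions were not converted between builds, and which Neat1 transcript these probes read was not tested. Of the 12 tested window probes on the strand opposite to Neat1, all had positive differences, from 0.01 to 0.96 with a median of 0.66, 8 had groups that lay apart, against 32.1% of all tested probes, and none was called. The highest, 136 bases downstream of the Neat1 probe position, was called with experiment as a block (limma adjusted p = 0.036, against 0.143 without it).

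**Figure D4:**
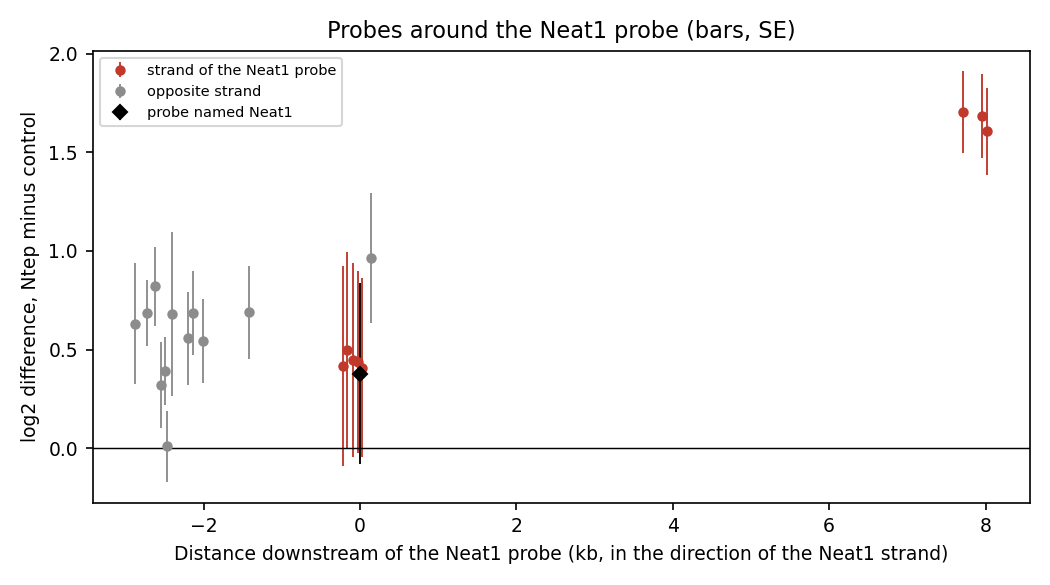
Log2 difference between GapmeR Ntep and GapmeR control (points, with SE as bars) of probes around the Neat1 probe, against their distance from it in kb along the Neat1 strand. Named probes sit together between 0.38 and 0.50, and the 3 window probes on the same strand 7707 to 8021 bases downstream sit between 1.61 and 1.70.

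Proteins of both nuclear bodies were measured beside these RNAs. Of 20 paraspeckle proteins tested, 8 were higher and 12 lower, the median was -0.06 (0.13 with scaling to the 75th percentile, under the 0.22 of all genes), and Pspc1 was called. Pspc1, a core paraspeckle protein of the family of Sfpq and Nono, read 2099, 1798 and 2682 under GapmeR Ntep and 6590, 5628.8 and 6340 under GapmeR control. It fell by 1.51 on the log2 scale (SE 0.21, limma adjusted p = 0.028), and its groups lay far apart. Of 15 genes of nuclear speckles and Malat1 processing, 7 were higher and 8 lower, with a median of -0.10 (0.14 with scaling to the 75th percentile), and Rnps1 (above) and Son were called. Of all genes tested, 5.15% were called. Son, a large scaffold protein of nuclear speckles, read 4172, 7989 and 7408 against 38438, 38635 and 33512. It fell by 2.55 (SE 0.29, limma adjusted p = 0.022), and its second, dimmer probe fell by 2.75 (SE 0.42, limma adjusted p = 0.031).

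H19, a transcript of the imprinted Igf2 region and the source of miR-675, has 7 probes, numbered here from its downstream end. Probe 1 read 24.5, 1139 and 229 under GapmeR Ntep and 137, 1824 and 1306 under GapmeR control. H19 was low in both cultures of experiment 1, and within every experiment this probe was lower under GapmeR Ntep, by differences of -2.48, -0.68 and -2.51. Because the experiments differed so widely, the difference of -1.89 had an SE of 1.62, a 95% interval of -5.84 to 2.06 and a limma adjusted p of 0.497. With experiment as a replicate block the limma adjusted p was 0.065.

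The next 5 H19 probes had differences of -1.22, -0.65, -1.001, -0.96 and -0.20, with limma adjusted p-values from 0.394 to 0.896. In experiments 2 and 3 all 6 tested probes were lower under GapmeR Ntep. In experiment 1 probes 2 and 6 stood at the floor on both arrays, and probe 3 was higher under GapmeR Ntep, at 118 against 50.1. Probe 7, the most upstream, was not well above background on any array and was not tested. No H19 probe passed the test.

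**Figure D5:**
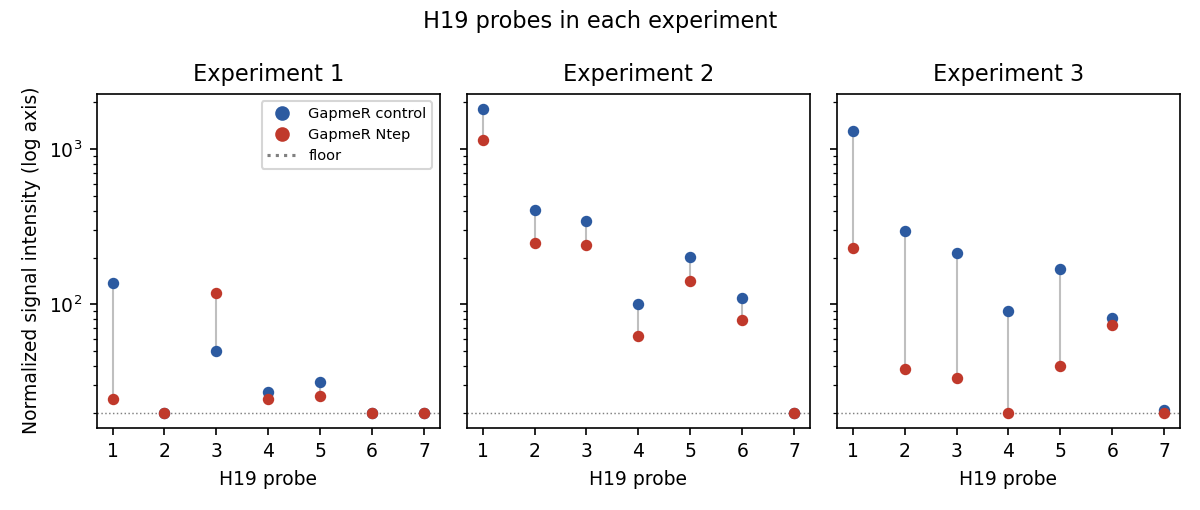
Normalized signal intensity (log axis) of the 7 H19 probes in each experiment, GapmeR control in blue and GapmeR Ntep in red. In experiments 2 and 3 probes 1 to 6 are lower under GapmeR Ntep, and in experiment 1 most lie near the floor of 20 (dotted line).

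Kcnq1ot1, the antisense RNA that silences genes around Kcnq1, has 2 probes. The brighter one read 1846, 1499 and 1545 under GapmeR Ntep and 1138, 2011 and 1162 under GapmeR control. Experiments 1 and 3 were higher and experiment 2 lower, and the difference was 0.23 (SE 0.27, 95% interval -0.44 to 0.89, limma adjusted p = 0.628). The dimmer one read 49.3, 86.1 and 115 against 80.9, 165 and 83.8, a difference of -0.40 (SE 0.42, limma adjusted p = 0.582). A group of probes named KCNQ1ot1, designed on the opposite strand, had differences of 0.05 to 0.46 for the 4 tested, and none was called.

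Meg3, the noncoding RNA of the imprinted Dlk1-Dio3 cluster, was not well above background on any array with any of its 3 probes. Their signals ran from the floor of 20 to 42.4, and no difference could be read at these levels. Mirg, a microRNA host further along the same cluster, was detected by its brighter probe, at 381, 381 and 449 under GapmeR Ntep against 164, 205 and 191 under GapmeR control. It rose by 1.12 (SE 0.18, limma adjusted p = 0.032). Mirg was the only call in a list of 13 tested imprinted neighbours, where 5.15% of all genes tested were called. In that list 5 were higher and 8 lower, with a median of -0.19, and Igf2, Rtl1, Dio3, Cdkn1c and Phlda2 were not well above background on any array. Of 18 tested imprinted genes elsewhere, 10 were higher and 8 lower, and none was called. Among them Dcn, a matrix proteoglycan, followed the H19 pattern of low values in experiment 1, at 34.5, 296 and 138 under GapmeR Ntep against 97.1, 1027 and 641. Its difference of -1.84 (SE 1.13, limma adjusted p = 0.364) was called with experiment as a block (limma adjusted p = 0.031). Peg3 was near the floor on most arrays, with a difference of -1.35 (SE 0.98, limma adjusted p = 0.437).

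Dleu2 hosts the pair of microRNAs that are shown here for their shared seed, in capitals (bases 2 to 8, RefSeq, GRCm38.p6). The array did not measure them.
mmu-miR-15a-5p: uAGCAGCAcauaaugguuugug
mmu-miR-16-5p: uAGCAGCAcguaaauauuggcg
The 3 Dleu2 probes, numbered from the downstream end, gave 3 different readings. Probe 1 read 235, 242 and 96.8 under GapmeR Ntep and 52.2, 112 and 28.2 under GapmeR control. It was higher in each experiment, but GapmeR Ntep in experiment 3 lay below the control of experiment 2. Its difference was 1.69 (SE 0.60, 95% interval 0.22 to 3.15, limma adjusted p = 0.154), and it was called with experiment as a block (limma adjusted p = 0.037).

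Probe 2 was not well above background on any GapmeR Ntep array and was on 1 control array, at 163, so its difference of -1.03 (SE 0.77, limma adjusted p = 0.450) rests on that array. Probe 3 read 226, 256 and 195 against 267, 185 and 199, a difference of 0.07 (SE 0.22, 95% interval -0.46 to 0.59, limma adjusted p = 0.873). A window probe with the same 60 bases as probe 3 read 228, 210 and 212 against 152, 166 and 190, a difference of 0.36 (SE 0.17, limma adjusted p = 0.244). On GapmeR control replicate 1 these identical spots stood at a ratio of 1.75. One window probe on the same strand, 7156 bases upstream of probe 2, read 955, 330 and 308 against 281, 183 and 174, a difference of 1.15 (SE 0.49, limma adjusted p = 0.213), with no overlap. The other tested window probes on this strand, 6180 and 6120 bases downstream of probe 3, had differences of 0.12 and -0.03.

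Of 23 tested genes that neighbour Dleu2 and other members, 9 were higher and 14 lower, the median was -0.07 (0.04 with scaling to the 75th percentile), and none was called. Kcnrg, a potassium channel regulator gene inside the Dleu2 span on the opposite strand, had the largest difference. It read 151, 117 and 128 under GapmeR Ntep, where it was well above background on 3 of 3 arrays, and 29.0, 64.4 and 60.8 under GapmeR control, where it was on none. The difference was 1.44 (SE 0.35, limma adjusted p = 0.068), and since no control array was well above background, the control level is known only as a bound. Trim13, next to it, read 1537, 1976 and 2517 against 3038, 2740 and 3184, a difference of -0.60 (SE 0.23, limma adjusted p = 0.173), and its second probe gave -0.65 (SE 0.19, limma adjusted p = 0.101). Trim13 is named here after its values were seen, and the lowest difference of the list, -0.78, belonged to another gene.

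Of 21 other noncoding RNAs tested, 13 were higher and 8 lower, with a median of 0.18. Mirg (above) was the only one called, where 5.15% of all genes tested were. Not well above background on any array were 10 of the 32 with a probe, among them Hotair, Tsix and Jpx.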

How the data were processed

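RNA of 6 cultures was hybridised to Agilent 1-colour mouse arrays. The authors extracted intensities with Agilent Feature Extraction 10.7.3.1 and deposited them background-subtracted on a linear scale, with a table of quantile-normalized intensities as well. The methods and the file headers name different array formats. Here replicate spots were averaged, followed by quantile normalization, a floor of 20 and the log2 scale. limma 3.58.1 (R 4.3.3) compared the groups without pairing, on probes whose group mean reached 50 under either GapmeR, with two-sided p-values.

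Members and lists were chosen with earlier results of these data known. Every member probe is named, and of each other list at most 5 called genes. Where none was called, at most 2 of the larger differences are named, and for the fibroblast markers none. Older symbols were matched through RefSeq (GRCm38.p6), and probe positions are those of mm9 in the files. Experiment numbers come from the study's supplement. Residuals of arrays of the same experiment correlated at 0.466, 0.300 and 0.254, against -0.327 to 0.126 between experiments, so the experiments pair the arrays. The main fit leaves this pairing out, as the study's unpaired test did, and its SEs include the spread between experiments. The number of arrays limits the precision. On simulated data, 3% of 100 probes changed by a log2 of 1 and 49% of 100 changed by 2 were called, with 5 others among 30957 tested. No other probes were changed there, while 1642 were called in the data. The adjustment is stricter when few probes change, so these shares do not give the recovery in the data. Figures were drawn in Python 3.11.15.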

Additional observations from a re-analysis of the deposited data

How the results depend on the processing

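Gas5 probe 1 was called (limma adjusted p under 0.05) with every scaling, with normexp, with the authors' normalized values and with a floor of 5, and its difference was positive in all fits. The number of member probes called, 1, became 0 with a floor of 50, without a filter on dim probes, with the methods' t-test and without both arrays of experiment 1 (this last chosen after seeing the data). It became 2 with only probes well above background on all arrays and with an intensity trend, 3 with experiment as a replicate block and 4 with array weights, and ran from 0 to 1 when arrays were left out one at a time. Calls over all probes rose as well, to 4292 of 30990 with the block and 10260 of 30990 with array weights, so these rises are not particular to the members. At the limits of the study's methods (fold 2, unadjusted p 0.01) it became 2 with the replicate block and with array weights, and ran from 0 to 2 without single arrays. All calls at these limits were 2520 in the main fit, 3471 with the block and 4506 with array weights. Snhg1 was called under 4 of the 14 alternatives that keep all arrays, with adjusted p-values of 0.0079 to 0.174. Over all probes the 1642 calls became 435 (floor of 50), 564 (no filter), 2491 (well above background only), 4292 (replicate block), 2707 (trend), 10260 (array weights), 285 (the methods' t-test) and 865 (without experiment 1), and ran from 0 to 1403 without single arrays. With 0 calls, without GapmeR control replicate 2 or GapmeR Ntep replicate 3, 1583 and 1866 probes still met the unadjusted limits. Those 2520 calls at the unadjusted limits became 1594 (floor of 50), 4506 (array weights) and 1457 (the methods' t-test), and ran from 1583 to 3163 without single arrays. The replicate block changed the call of 2 member probes, Snhg1 and Dleu2 probe 1, and of no other.

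Small differences changed sign. Dleu2 probe 3 was -0.0030 with normexp and -0.040 to 0.22 without single arrays. Without experiment 1, Kcnq1ot1's brighter probe was -0.0066 and Gas5 probe 3 was -0.033. Without single arrays, Gas5 probe 3 ran from -0.024 to 0.51, H19 probe 3 from -1.47 to 0.12, H19 probe 6 from -0.95 to 0.44 and the Ntep probe from -1.06 to 0.13. The cause of these changes was not tested. The number of arrays limits all members, and signal over background limits Meg3, most H19 probes in experiment 1 and Dleu2 probe 2.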
